A study of Mus musculus with 8 samples.

Results

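The 3p strands of the let-7 microRNAs were described in kidneys of Akita and control mice. They were taken as every mouse miRNA on the arrays whose name starts with let-7 and ends in 3p, which gave 10 of the 1881 miRNAs measured. They were selected by results on these same arrays, in which let-7f-1-3p and let-7b-3p had passed the threshold for a higher signal in Akita kidneys, so their own values in that contrast are given as a description without a test. There were 4 kidney RNA samples from male C57BL/6-Ins2Akita/J mice (Akita) and 4 from male C57BL/6J mice, the control group, whose sample titles read Mock. The age is listed as 36 for all 8 samples, with no unit, and what Mock stood for was not given in the sources used here. Akita mice carry a dominant germline mutation in Ins2, one of the mouse insulin genes. Misfolded proinsulin then damages the pancreatic beta cells, and the mice become diabetic. No source used here says whether the kidneys of a group came from separate mice, and p-values therefore cover no more than the spread among these samples, which may be technical.

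A let-7 precursor is a hairpin that Dicer cuts into a duplex of 2 strands. The 5p strand, the guide, is usually loaded into Argonaute and represses mRNAs through its seed, bases 2 to 8. The 3p strand, the passenger, is usually discarded and degraded. The let-7 guides promote differentiation and are abundant in adult tissues, and LIN28 blocks the maturation of let-7 precursors. A given guide can come from more than 1 precursor, whereas most 3p strands are named for a single gene, such as let-7a-1-3p and let-7a-2-3p.

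The mature 3p sequences are shown because the guides share a seed and the passengers do not. All 10 names were found in RefSeq (GRCm38.p6), and the sequences are from there, 5′ to 3′, with the seed in capitals.
let-7a-1-3p: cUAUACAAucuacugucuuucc
let-7b-3p: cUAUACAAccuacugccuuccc
let-7f-1-3p: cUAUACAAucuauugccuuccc
let-7a-2-3p: cUGUACAGccuccuagcuuuc
let-7c-1-3p: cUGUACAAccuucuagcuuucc
let-7d-3p: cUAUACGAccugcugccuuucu
let-7e-3p: cUAUACGGccuccuagcuuucc
let-7f-2-3p: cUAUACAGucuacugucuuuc
let-7g-3p: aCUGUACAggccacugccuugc
let-7i-3p: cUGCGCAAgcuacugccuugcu
let-7b-5p: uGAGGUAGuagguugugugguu
let-7f-5p: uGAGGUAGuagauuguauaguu
The 3p strands let-7a-1-3p, let-7f-1-3p and let-7b-3p had the same seed, UAUACAA. Each of the other 7 had a seed of its own. All 8 let-7 guides on the arrays and miR-98-5p, a let-7 family member under another name, shared the seed GAGGUAG. Between let-7f-1-3p and let-7b-3p, 2 bases differed along the whole strand. The sequence of let-7a-1-3p is identical to that of let-7c-2-3p, a strand of another gene that is not named on the arrays, so its probes could not tell these apart.

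The precursors of the 3 strands that were measured above background are shown to place both strands in the hairpin. They are RefSeq sequences of GRCm38.p6, 5′ to 3′, with the 5p strand and then the 3p strand in capitals.
Mirlet7b: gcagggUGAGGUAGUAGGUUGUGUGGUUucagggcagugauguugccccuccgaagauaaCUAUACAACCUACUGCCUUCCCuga
Mirlet7f-1: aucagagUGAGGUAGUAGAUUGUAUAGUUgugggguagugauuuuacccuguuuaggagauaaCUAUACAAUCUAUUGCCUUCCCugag
Mirlet7a-1: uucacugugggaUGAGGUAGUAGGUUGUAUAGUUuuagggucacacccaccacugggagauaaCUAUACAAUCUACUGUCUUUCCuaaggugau
The hairpins are 85, 89 and 94 bases long. Mirlet7a-1 and Mirlet7f-1 lie in one cluster with Mirlet7d on chromosome 13, and Mirlet7b lies with Mirlet7c-2 within the long non-coding RNA gene Lncppara on chromosome 15. By name in the same RefSeq table, Mirlet7a-2 neighbours Mir100 within the host gene Mir100hg, Mirlet7c-1 neighbours Mir99a, Mirlet7e neighbours Mir99b and Mir125a within Spaca6, and Mirlet7f-2 neighbours Mir98 within Huwe1. Mirlet7g lies within Wdr82, and Mirlet7i has no other miRNA gene within 10 kb.

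Of the 10 passenger strands 3 were detected, against all 9 of the 5p strands, which are 8 let-7 guides and miR-98-5p. Every 3p strand had 30 spots per array, spread over 2 to 4 probes. A probe counted as above background on an array when at least 0.5 of its spots were, by the scanner software's flag, and a strand did when at least 1 of its probes was. By this measure let-7a-1-3p, let-7f-1-3p and let-7b-3p were above background on all 8 arrays. Of all 1881 miRNAs measured, 257 were. The strands let-7a-2-3p, let-7c-1-3p, let-7d-3p, let-7e-3p, let-7f-2-3p, let-7g-3p and let-7i-3p were not well above background on any array. For them the arrays give only an upper bound, and no comparison between the groups was made.

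**Figure D1:**
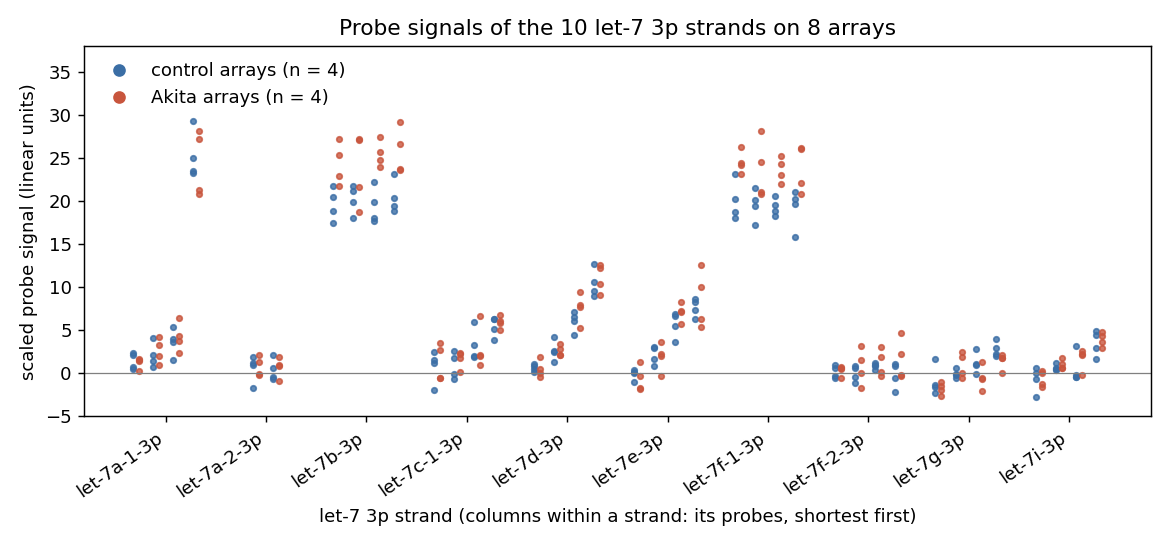
Signal of every probe of the 10 let-7 3p strands (y axis, scaled linear intensity units) on the 4 control and 4 Akita arrays (points), with the probes of a strand side by side from short to long. All probes of let-7f-1-3p and let-7b-3p lie between 15.8 and 29.2, and of the other 8 strands only the longest probe of let-7a-1-3p reaches this range.

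Among the 7 undetected strands the signals were not all alike. After scaling of the arrays to a common 75th percentile, the longest probe of let-7d-3p gave 8.92 to 12.7, and the shorter ones gave less the shorter they were, down to a mean of 0.563. The longest probe of let-7e-3p gave 5.34 to 12.5. The longest probe of let-7c-1-3p gave 3.84 to 6.82. The signals of let-7a-2-3p and let-7f-2-3p lay around 0, with probe means of 0.267 to 1.00. The scanner software's own call per miRNA, which differs from the one used here, listed let-7d-3p as detected on 1 array, control 2, and the other 6 on none.

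The 3 detected passengers gave signals far below those of their guides. The summed signal over the probes of let-7b-3p, after scaling, was 87.5, 81.0, 78.4 and 72.0 in controls 1 to 4 and 94.5, 93.9, 97.1 and 111 in Akita kidneys 1 to 4. That of its guide let-7b-5p was 7573, 8299, 8137 and 8174 in the controls and 7973, 7255, 7808 and 8213 in the Akita kidneys. The passenger values were thus higher in every Akita array, while the guide values of the groups overlapped.

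For let-7f-1-3p the sums were 83.1, 82.5, 77.4 and 69.3 in the controls and 87.9, 95.3, 94.1 and 105 in the Akita kidneys. Here too the lowest Akita value lay above the highest control value. For let-7a-1-3p they were 29.2, 39.6, 30.3 and 30.7 in the controls and 33.4, 31.7, 30.5 and 34.0 in the Akita kidneys. Control 2 was the highest of all 8, and the groups overlapped.

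The ratio of the 3p to the 5p signal within an array does not change when an array is multiplied by a scaling factor. It is not a ratio of molecules, since different probes bind and label with different efficiency, and only its change between groups is described. Whether a passenger signal close to the detection limit follows the brightness of its array as the guide does was not tested. The log2 ratio of let-7b-3p to let-7b-5p was -6.44, -6.68, -6.70 and -6.83 in the controls and -6.40, -6.27, -6.33 and -6.21 in the Akita kidneys. All Akita values lay above all control values, and the mean ratio was 0.36 higher on the log2 scale. The ratio holds the passenger values by which let-7b-3p was chosen, so it is a description and no separate support. Without scaling, the log2 difference was 0.042 for the passenger and -0.315 for the guide. After scaling, these differences were 0.314 and -0.043. Which strand holds the change thus depends on the scaling, and the ratio does not settle it. The guide signal was 101 times that of the passenger in the controls and 78.9 times in the Akita kidneys.

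The log2 ratio of let-7f-1-3p to let-7f-5p was -7.05, -7.25, -7.31 and -7.40 in the controls and -7.18, -6.82, -6.99 and -7.01 in the Akita kidneys. Its mean was 0.25 higher in Akita, with overlap between control 1 and Akita 1. Without scaling, the log2 difference was 0.020 for this passenger and -0.23 for its guide, and after scaling 0.292 and 0.038. The guide signal was 152 and 128 times the passenger's. The guide let-7f-5p can come from Mirlet7f-1 or Mirlet7f-2, and let-7a-5p from more than 1 gene. The let-7a-1-3p probes also match let-7c-2-3p, so that neither of these ratios is that of a single precursor. The log2 ratio of let-7a-1-3p to let-7a-5p was -8.61, -8.33, -8.70 and -8.62 against -8.54, -8.41, -8.60 and -8.57, a difference of 0.035 with overlapping groups. The guide signal was 378 and 369 times the passenger's.

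**Figure D2:**
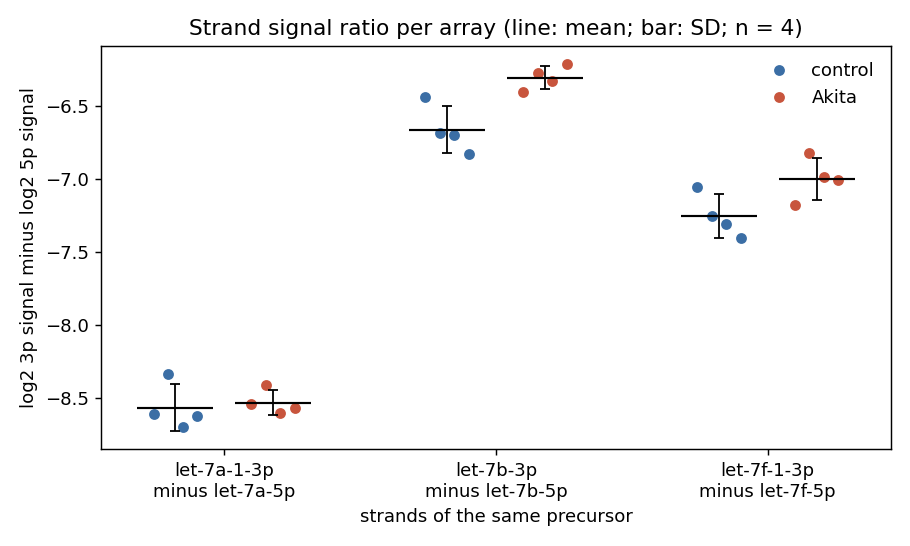
Difference of the log2 signals of the 3p and 5p strands of a precursor (y axis) on each array (points), with group means and SD, n = 4 per group. The ratio of let-7b is higher on all Akita arrays than on any control array, and those of let-7f-1 and let-7a-1 overlap between the groups.

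Among 25 other precursors with both strands tested, the ratio of the lower to the higher strand was above that of every control in all Akita arrays for 2, which is 8% of them. In 5 of the 25 pairs all Akita ratios lay below all control ratios. The change of this ratio over the 25 had a median of -0.014 with a range of -0.41 to 0.42. The changes of all 3 let-7 pairs lay inside this range.

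On the log2 scale of the scaled signals, let-7b-3p was 6.31 ± 0.12 (SD, n = 4) in control and 6.63 ± 0.11 (SD, n = 4) in Akita kidneys. The difference was 0.31 with a standard error of 0.085 and a 95% interval of 0.12 to 0.51, or 1.24-fold. For let-7f-1-3p the levels were 6.28 ± 0.12 and 6.58 ± 0.10 (SD, n = 4 each), a difference of 0.29 with a standard error of 0.085 and an interval of 0.10 to 0.48, or 1.22-fold. Both strands were chosen by this contrast, so their intervals are not read as a test. For let-7a-1-3p they were 5.01 ± 0.20 and 5.02 ± 0.071 (SD, n = 4 each), a difference of 0.007 with an interval of -0.22 to 0.24. In RNA of kidney tissue, a change in the number of cells that hold a miRNA and a change of its level per cell cannot be told apart.

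In the limma fit over all 285 tested miRNAs, let-7f-1-3p and let-7b-3p passed the threshold, a Benjamini-Hochberg adjusted p of 0.05, and 0 of the 3 were lower past it. This call is what drew attention to the strands, so nothing is read from it. Over all tested miRNAs 8.42% passed as higher, 6.32% as lower and 14.7% in either direction, and for 13.7% all Akita values lay above all control values. The 3 passengers had a median log2 fold change of 0.29, the value of the chosen strand let-7f-1-3p, beside 0.063 over all tested miRNAs. The call was lost for let-7b-3p when any array other than control 1 was left out, and for let-7f-1-3p when any of the 8 was. Without Akita 4, the dimmest array, the difference was 0.197 for let-7b-3p and 0.185 for let-7f-1-3p.

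The passenger signals overlapped between the groups before the arrays were scaled. Before scaling, the summed signal of let-7b-3p was 93.5, 87.9, 86.0 and 80.8 in the controls and 90.9, 88.1, 90.7 and 88.2 in the Akita kidneys. The groups overlapped, and the 4 Akita values lay within the range of the controls. That of let-7f-1-3p was 88.8, 89.5, 84.8 and 77.7 in the controls and 84.6, 89.4, 87.8 and 83.3 in the Akita kidneys, again inside the controls' range. The unscaled log2 differences were 0.042 with a 95% interval of -0.097 to 0.18 for let-7b-3p, and 0.020 with an interval of -0.13 to 0.17 for let-7f-1-3p. For let-7a-1-3p the unscaled sums were 31.2, 43.0, 33.2 and 34.4 in the controls and 32.1, 29.8, 28.5 and 27.0 in the Akita kidneys. Its log2 difference was -0.27 without scaling, with a 95% interval of -0.51 to -0.023, and the groups overlapped.

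The scaling removed a difference in overall brightness. The 75th percentile of the 451 probes above background on all arrays was 507 ± 10.3 (SD, n = 4) in the controls and 421 ± 35.2 (SD, n = 4) in the Akita arrays, 17.0% lower. The labelling spike-ins, control RNAs added to each labelling reaction, gave 1747 ± 54.9 and 1723 ± 81.8 (SD, n = 4 each), 1.36% lower in Akita. All arrays lay on 1 slide, with the controls in one row and the Akita samples in the other, so row and group cannot be told apart.

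**Figure D3:**
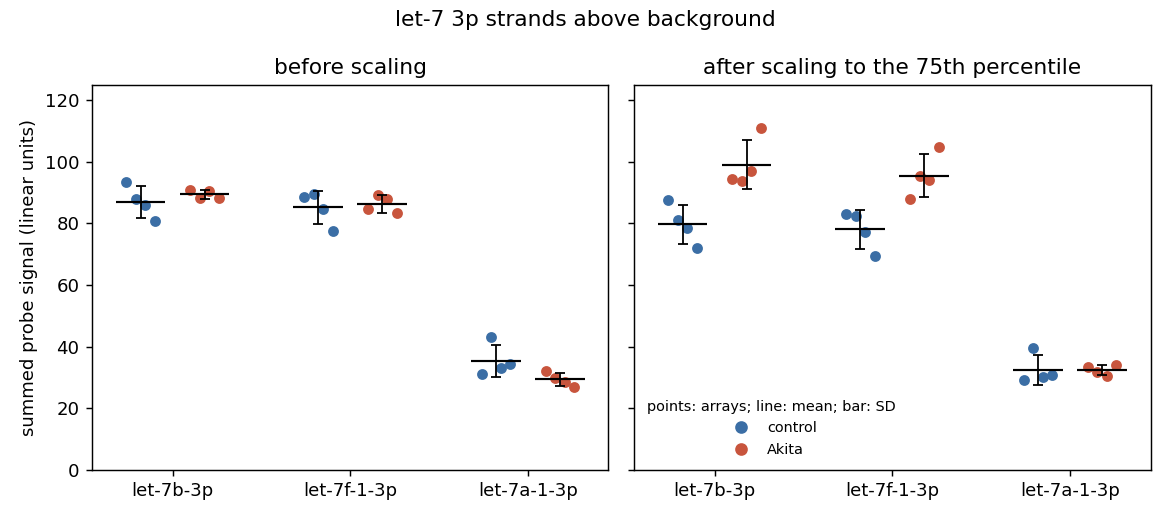
Summed probe signal (y axis, linear intensity units) of the 3 passengers above background, before (left) and after (right) scaling, with a point per array, group means and SD, n = 4 per group. Before scaling the groups overlap for all 3 strands, and after scaling all Akita values of let-7f-1-3p and let-7b-3p lie above the control values.

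The passenger differences were also set against the median change of all tested miRNAs. That median was 0.063 after scaling to the 75th percentile, -0.21 with no scaling and -0.19 with the spike-ins as reference. Relative to it, let-7b-3p was 0.25 higher under each of these. A factor per array moves a strand and the median alike, so that this sameness was fixed in advance. Of the 7 scalings compared, only quantile and cyclic loess are not such factors, and they gave 0.24 and 0.23. The relative difference of let-7f-1-3p was 0.21 to 0.26 over the 7 scalings. That of let-7a-1-3p was between -0.056 and 0.029, changing sign under quantile scaling.

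The guides were not used in choosing the strands and were tested. After scaling, 0 of 9 guides (miR-98-5p included) passed the threshold in the limma fit, and the smallest unadjusted p among them was 0.227. Their log2 fold changes ran from -0.068 for let-7c-5p to 0.11 for miR-98-5p, with a median of 0.006. For let-7b-5p the change was -0.043 (limma, adjusted p = 0.684), for let-7f-5p 0.038 (limma, adjusted p = 0.791) and for let-7a-5p -0.027 (limma, adjusted p = 0.836). Without scaling, 7 of 9 passed as lower in Akita, beside 36.5% of all tested miRNAs. In 6 of 9 all Akita values lay below all control values, beside 33.3% of all tested, and over all tested miRNAs 1.4% had all Akita values above.

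Without scaling let-7b-5p fell by 0.32 (limma, adjusted p = 0.0100) and let-7a-5p fell by 0.30 (limma, adjusted p = 0.0147). The unscaled sums of let-7b-5p were 8089, 9008, 8916 and 9167 in the controls and 7672, 6807, 7289 and 6531 in the Akita kidneys, without overlap. The change of let-7f-5p turned from 0.038 to -0.23 (limma, adjusted p = 0.0441), and those of let-7g-5p and let-7i-5p likewise turned negative, to -0.27 and -0.26. The unscaled median was -0.27 over the 9 guides, beside -0.21 over all tested miRNAs. The guides let-7d-5p, at -0.18 (limma, adjusted p = 0.103), and miR-98-5p, at -0.16 (limma, adjusted p = 0.138), did not pass without scaling, and their groups overlapped.

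**Figure D4:**
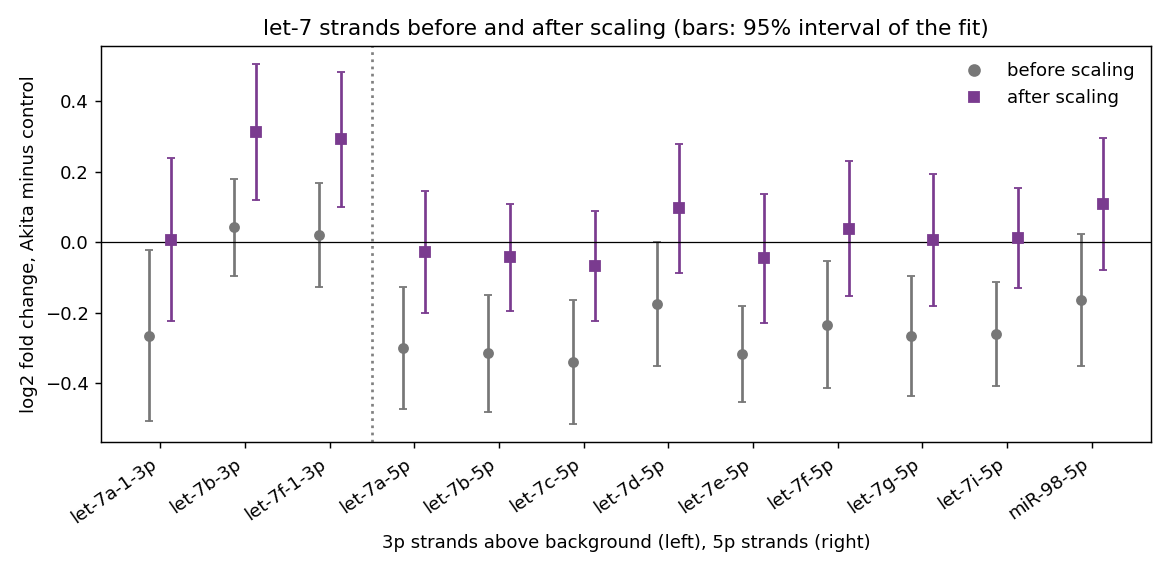
Log2 fold change, Akita minus control (y axis), of the 3 passengers above background and of the 9 guides, before scaling (grey circles) and after it (purple squares), with 95% intervals of the limma fit over n = 4 per group. Before scaling let-7f-1-3p and let-7b-3p lie at 0.020 and 0.042 and all guides below 0, and after scaling the guides lie around 0 and both passengers above it.

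The signals of let-7f-1-3p and let-7b-3p had further features in common. Each strand had 4 probes of increasing length. Those of let-7b-3p, from 13 to 16 bases, had mean scaled signals of 21.9, 21.9, 22.5 and 23.1. Those of let-7f-1-3p, from 17 to 20 bases, had 22.3, 21.6, 21.5 and 21.5. Neither set changed much with length. For let-7a-1-3p the probes of 19, 20 and 21 bases gave 1.34, 2.35 and 3.92, and only that of 22 bases, with 24.8, was above background.

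These probes are shown because their first letters set them apart. Sequences are those of the array files, 5′ to 3′, with a starting GGG in capitals.
let-7b-3p, probe of 13 bases: GGGaaggcagtag
let-7b-3p, probe of 16 bases: GGGaaggcagtaggtt
let-7f-1-3p, probe of 17 bases: GGGaaggcaatagattg
let-7f-1-3p, probe of 20 bases: GGGaaggcaatagattgtat
let-7a-1-3p, probe of 19 bases: ggaaagacagtagattgta
let-7a-1-3p, probe of 22 bases: ggaaagacagtagattgtatag
By the array annotation, which uses mm9, the longest probe of let-7b-3p lies at chr15:85537816-85537830 on the plus strand, a span 1 base shorter than the probe. The longest probe of let-7f-1-3p lies at chr13:48633263-48633282 and that of let-7a-1-3p at chr13:48633611-48633632, both on the minus strand. All 38 probes of the 10 strands were complementary to the strand they are named for. The 13-base probe of let-7b-3p had 1 mismatch to let-7f-1-3p, and the other probes of these strands had 2 mismatches to the other strand.

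Both let-7f-1-3p and let-7b-3p end in CCC, shown in capitals here beside let-7a-1-3p and let-7d-3p with their own last 3 bases.
let-7b-3p: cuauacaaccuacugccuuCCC
let-7f-1-3p: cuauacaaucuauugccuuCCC
let-7a-1-3p: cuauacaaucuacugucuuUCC
let-7d-3p: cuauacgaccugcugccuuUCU
The other 8 of the 10 strands did not end in CCC. In the RefSeq table the share of mature mouse miRNA names that end so was 12 of 1679, or 0.715%. A probe starts at the base that pairs with the end of its miRNA, and a strand that ends in CCC has probes that start with GGG.

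On the arrays 34 of 4415 probes (0.770%), for 12 miRNAs, started with GGG, all read on the probe strand. This set was chosen after the signals of let-7f-1-3p and let-7b-3p had been seen, and it is described with no test. Its mean scaled signals had a median of 19.0 and ran from 1.23 to 37.0, beside a median of -0.18 over the 4381 other probes. Of the 34, 31 (91.2%) lay between 10 and 40, against 10.2% of the others. The next highest median by the first 3 letters was 4.29, for TGG. Of the 34 GGG probes, 64.7% were above background on at least 1 array, against 14.3% of the others. The median and both shares of the GGG probes count the 4 probes of let-7b-3p and the 4 of let-7f-1-3p, which led to the set. All of these lay between 10 and 40 and were above background on at least 1 array. The exceptions to the common level were the probes of miR-6241, at 1.23 and 1.80, and 1 probe of miR-7025-5p, at 8.03.

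**Figure D5:**
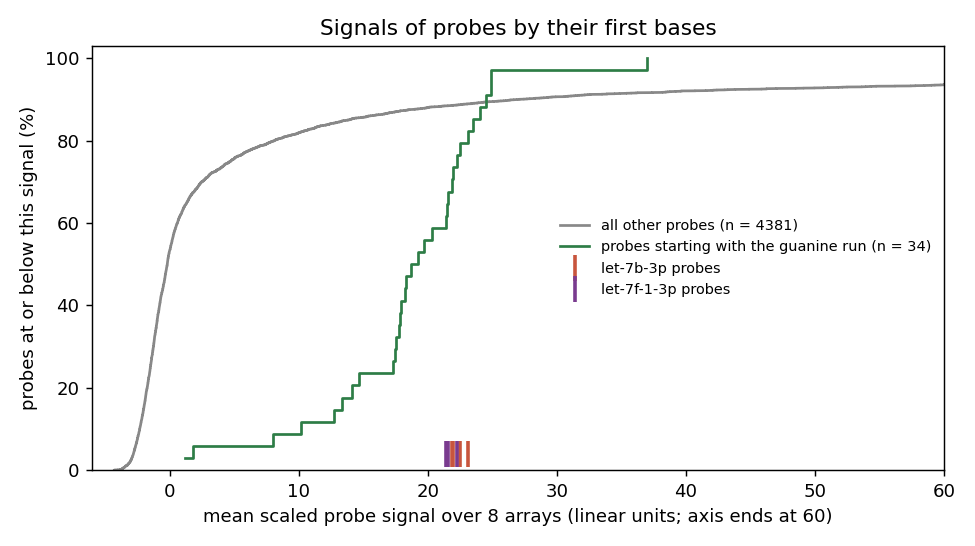
Share of probes (y axis, percent) at or below a mean scaled signal over the 8 arrays (x axis, linear intensity units up to 60) for the 34 probes that start with a run of 3 guanines and for the 4381 others, with the let-7f-1-3p and let-7b-3p probes marked at the bottom. Most of the 34 lie between 10 and 40 and the 8 let-7 probes between 21.5 and 23.1, whereas the median of the others is -0.18.

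Of the 12 miRNAs with such probes 5 were tested, and in all 5 every scaled Akita value lay above every control value. The share over all tested miRNAs was 13.7%. Of the 5, let-7f-1-3p and let-7b-3p had been chosen by this contrast, so nothing is read from the count of 5. The other 3 were miR-149-5p, with a log2 difference of 0.46, miR-7666-5p, with 0.25, and miR-3544-3p, with 0.23. Of these, miR-3544-3p was above background on 7 of the 8 arrays, so not every array of both groups had it. Without scaling the groups overlapped for all 5, and the differences ran from -0.046 to 0.19. A mean log2 signal between 6 and 7 is the range that holds let-7f-1-3p and let-7b-3p, whereas the other 3 lay below it. Among 69 other tested miRNAs of this range, 8 had all scaled Akita values above the controls. The median difference over the 69 was 0.096. Whether the letters at the end of a strand take part in its signal was not tested.

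The signals lay close to the detection limit. The faintest spots called above background had unscaled signals of 19.3 to 21.2 by array, and the median spot of let-7b-3p had 22.1 and that of let-7f-1-3p 21.5. Of all spots of let-7b-3p over the 8 arrays, 157 of 228 (68.9%) were above background, 61.9% in the controls and 76.4% in Akita. For let-7f-1-3p they were 137 of 226 (60.6%), with 52.5% and 69.4%. For let-7a-1-3p they were 45 of 227 (19.8%), with 22.9% and 17.0%. The faintest spots so called were lower on the Akita arrays, so these shares do not compare amounts of signal between the groups. Negative control spots had means of -0.28 to 3.07 with SDs of 3.42 to 4.15 within an array.

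The authors' deposited table gives, for each miRNA on each array, a linear ratio. In it let-7b-3p was 0.975, 0.920, 0.917 and 0.822 in the controls and 1.03, 1.07, 1.13 and 1.18 in the Akita samples. The column medians of the authors' deposited table were 0.951, 0.950, 0.970 and 0.700 in the controls and 1.03, 1.11, 1.13 and 1.22 in the Akita samples. Divided by these medians, the let-7b-3p ratios of the authors' deposited table became 1.03, 0.968, 0.946 and 1.17 against 0.995, 0.966, 0.997 and 0.968, with overlapping groups. In the authors' deposited table, among the 10 passengers, 6 equalled the column median on all 8 arrays, to within 1e-06, and these were 6 of the 7 strands not above background here. For let-7d-3p it lists 12.1 in control 2, which is 12.8 times that column's median. The way its array factors were set was not given in the sources used here.

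Neighbours of let-7 genes gave the following values. Of 12 strands of miR-98-3p, miR-99a, miR-99b, miR-100, miR-125a and miR-125b on the arrays, 6 were tested, and 0 passed the threshold in the limma fit. At an unadjusted p under 0.05 there were 2 of the 6, beside 34% of all tested miRNAs. For miR-125b-5p the log2 fold change was -0.22 (limma, adjusted p = 0.0594). All its Akita values lay below all control values, as did those of 26 of all 285 tested miRNAs. For miR-125a-3p, the passenger tested among them, it was 0.25 (limma, adjusted p = 0.144), with overlap. The median over the 6 was -0.054. The passengers miR-98-3p, miR-99a-3p, miR-99b-3p, miR-100-3p, miR-125b-1-3p and miR-125b-2-3p were not well above background on any array, like 7 of the 10 let-7 passengers.

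Over 25 lower-signal strands of other precursors with both strands tested, 2 were higher and 3 lower past the threshold in the limma fit. Their median log2 fold change was 0.068 after scaling and -0.20 without it. The unscaled median of the 3 let-7 passengers was 0.020.

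The miRNAs outside the family whose profile over the 8 arrays was most like the mean of the 3 detected passengers were found by the root mean square difference of the centred log2 signals. Among 273 candidates these were miR-320-3p and miR-3092-3p, each at 0.044, miR-5100 at 0.049, miR-7241-5p at 0.051 and miR-484 at 0.052. The median over all candidates was 0.16 and the largest 1.17. None of these 5 has probes that start with GGG.

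Markers of the cells in a kidney sample were read on the same arrays. All 5 miRNAs listed for kidney tubules were above background on all 8 arrays, with summed scaled signals of 18740 to 21140 in the controls and 18970 to 21980 in Akita, and 0 of 5 passed the threshold in the limma fit. All 6 listed for leukocytes were detected, and 5 passed as lower in Akita in the limma fit, beside 6.32% of all tested miRNAs. Their sums were 1075 to 1239 in the controls and 736.5 to 876.6 in Akita. Both endothelial strands were detected, with sums of 4753 to 5201 and 5069 to 6468. Of 3 listed for erythrocytes 1 was tested, and the sums were 97.6 to 1308 and 631 to 849. The pancreas miRNAs miR-216a-5p and miR-217-5p, the skeletal muscle miRNA miR-206-3p and the neuronal miR-124-3p were not above background on any array, and the liver miRNA miR-122-5p was on 5. The other miRNA listed for neurons, miR-9-5p, was above background on all 8 arrays, with a log2 difference of -0.27 that did not pass the threshold. The part of the leukocyte difference in the let-7 passenger values was not tested.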

How the data were processed

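Each sample gave 100 ng of total RNA for Cy3 labelling and 1 one-colour Agilent mouse miRNA array, per the labels' protocols. The deposited spot intensity values came from Agilent Feature Extraction 12.0.3.1, per the submitters' processing notes, and are background-subtracted and not normalized between arrays. The authors' deposited value table holds a linear ratio per miRNA, used as an alternative; set against the scanner values it runs in the direction of the signal, and the origin of its array factors is unknown.

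Control spots and outlier spots (2.03% to 3.02% per array) were left out, and no spot was saturated. Spots of a probe were averaged, arrays were scaled by the 75th percentile of the 451 probes above background on all of them, and the up to 4 probes of a miRNA were summed. A floor of 23.8 was applied to the sums before log2, which is 4.57 as a log2 value. A miRNA was tested if every array of either group had it above background, and the 285 that were so were fitted with limma 3.58.1 in R 4.3.3 (two-sided, 6 residual and 9.16 total degrees of freedom), with Benjamini-Hochberg adjustment over all of them. The fit was also run on simulated data, and the outcome is not given here. The number of arrays limits the precision.

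Groups and replicate numbers came from the sample titles. Same-numbered samples share a slide column but had deviations that correlated at 0.096, -0.30, 0.34 and -0.35, so the main comparison has no block. The members and lists were chosen with earlier results of these data known. The miRNAs named are the let-7 strands, miR-98, the neighbouring miRNAs of let-7 genes, the 5 outside the family with the most similar profile, and markers listed by general knowledge of the tissues and cell types; miRNAs with GGG probes were added after their values were seen. The alternatives covered scaling, background correction, probe summary, floor, filter, flags, variance model, block and each array left out. One, a stricter share of 0.75 of spots above background, was chosen after seeing the data.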

Additional observations from a re-analysis of the deposited data

Results flagged for a closer look

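Over 30 groups of 4 arrays examined, 2 had an array far from the other 3, where chance gives about 1 in 20. The log2 signal of let-7a-1-3p was 5.31 in control 2 and 4.87 to 4.94 in the other controls, a gap of 0.844 of the group's range. Without control 2 the difference of let-7a-1-3p between the groups was 0.11 in place of 0.007. The log2 signal of the guide let-7i-5p was 10.91 in the same array and 10.81 to 10.83 in the other controls, a gap of 0.838 of the range. Without control 2 its difference was 0.033 in place of 0.012.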

How the results depend on the processing

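Over 28 alternatives let-7b-3p was higher in Akita in 28, by 0.042 to 0.41 on the log2 scale, and past the threshold in 11. For let-7f-1-3p the range was 0.020 to 0.38, also positive in 28, and 7 passed. The alternatives reuse the same arrays, and some, such as the variance trend, leave the difference as it was. Both strands were chosen as higher, so the shared sign is not a replication. The number of passengers higher past the threshold, 2 as reported, was 0 with no scaling, with spike-in scaling, with the percentile over all probes, with the brightest probe, with the scanner software's total signal, with a floor 4 times higher, with no filter, with outlier spots kept and with 0.75 of spots above background. It was 1 with a floor 4 times lower, with the authors' deposited table and with a variance trend. Leaving out each array in turn gave 0 to 1. With the replicate number as a block it was 0, and the numbers do not pair the samples: in 0 of 4 pairs did a sample correlate best with its own number. That block gave 11 higher and 14 lower among all tested miRNAs in place of 24 and 18.

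The passengers' median log2 fold change was 0.020 with no scaling, 0.041 with spike-ins, 0.035 with the higher floor and 0 with no filter, under which all 10 strands were tested. The median ratio change was 0.027 with the higher floor, which lies above most passenger signals. The guides past the threshold numbered 7 with no scaling, 7 with spike-ins and 1 with cyclic loess (let-7c-5p, lower by 0.12). The changes of let-7f-5p, let-7g-5p and let-7i-5p turned to -0.23, -0.27 and -0.26 with no scaling and to -0.21, -0.25 and -0.24 with spike-ins.

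Among all tested miRNAs the split of higher and lower calls was 5 and 104 with no scaling, 7 and 113 with spike-ins, 27 and 16 with the median, 10 and 4 with the percentile over all probes, 36 and 26 with quantile and 29 and 41 with cyclic loess. With normexp it was 81 and 8. The cause of these differences was not tested. Signals near background limit what can be said of the 7 undetected passengers.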
